A study of Mus musculus with 6 samples.

Results

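Innate-like lymphocytes of the skin were taken from single-cell RNA profiles by their transcripts. A cell was included if it had a UMI (a counted RNA molecule) of the chemokine gene Xcl1 and one of the granzyme gene Gzmc or the receptor gene Cd160. It was excluded if it had any UMI of Cd3e, Cd3g, Cd4, Cd8a, Cd8b1, the gamma-delta segment Trdv4 or a beta-chain variable segment, or if Krt5 and Krt14 together reached 20 UMIs per 10000. The rule selected 79 of 21178 cells, of which 40 and 11 came from the NO_AG mice, 13 and 7 from the AG mice, and 4 and 4 from the AG_CPI mice.

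All 6 mice were of the NINJA strain, which carries an inducible neoantigen, and were 6 to 12 weeks old. Skin from an area treated with 4-OH-Tam was dissociated and sequenced with a 10x Genomics 5′ kit, per the labels' protocols. The series describes the groups as antigen off (NO_AG), antigen on (AG) and antigen on with CPI (AG_CPI), with 2 mice each, and the labels give no promoter, sex or batch. Per the same protocols, skin pathology and infiltrating P14 CD8 T cells had been checked in each animal before sequencing, so P14 cells are part of the model.

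Natural killer (NK) cells and the related group 1 innate lymphoid cells are lymphocytes without a rearranged antigen receptor, unlike innate-like T cells such as gamma-delta T cells. They sense stressed cells through activating receptors of the NK and C-type lectin families, which signal through small adaptor proteins such as those encoded by Tyrobp, Fcer1g and Hcst. They answer with cytotoxic granules and with cytokines and chemokines, among them interferon gamma and Xcl1, the ligand that attracts cross-presenting dendritic cells. In mouse epidermis their neighbours are the dendritic epidermal T cells (DETC), gamma-delta T cells that share many of these receptors.

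Promoter windows of the rule's genes Gzmc and Xcl1 and of the receptor genes Ncr1, Klrb1a and Klrb1c are shown first. They were picked because they hold a shared short motif. Sequences are from RefSeq on GRCm38.p6, 250 bases before to 50 bases after a transcript start, written 5′ to 3′ along the gene. Capitals mark the RUNX core (TGTGGT, or ACCACA on the other strand) and, in the Xcl1 window, a T-box motif (GGTGTGA), both searched on either strand. The windows are chr14:56234608-56234907 (minus strand) for Gzmc, chr1:164935473-164935772 (minus strand) for Xcl1 and chr7:4337465-4337764 (plus strand) for Ncr1. Those of the paralogs Klrb1a and Klrb1c are chr6:128622885-128623184 and chr6:128788592-128788891, both on the minus strand.
Gzmc: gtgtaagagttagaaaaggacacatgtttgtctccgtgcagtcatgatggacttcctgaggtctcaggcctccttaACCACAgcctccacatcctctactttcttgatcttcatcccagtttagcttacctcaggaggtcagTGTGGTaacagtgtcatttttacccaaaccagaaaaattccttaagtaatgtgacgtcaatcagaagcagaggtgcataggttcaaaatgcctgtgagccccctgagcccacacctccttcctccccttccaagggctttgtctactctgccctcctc
Xcl1: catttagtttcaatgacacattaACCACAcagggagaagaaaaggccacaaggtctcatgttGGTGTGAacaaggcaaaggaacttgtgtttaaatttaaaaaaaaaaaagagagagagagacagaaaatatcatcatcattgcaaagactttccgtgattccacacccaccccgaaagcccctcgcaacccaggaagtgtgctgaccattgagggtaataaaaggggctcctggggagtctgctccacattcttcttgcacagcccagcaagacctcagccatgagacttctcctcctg
Ncr1: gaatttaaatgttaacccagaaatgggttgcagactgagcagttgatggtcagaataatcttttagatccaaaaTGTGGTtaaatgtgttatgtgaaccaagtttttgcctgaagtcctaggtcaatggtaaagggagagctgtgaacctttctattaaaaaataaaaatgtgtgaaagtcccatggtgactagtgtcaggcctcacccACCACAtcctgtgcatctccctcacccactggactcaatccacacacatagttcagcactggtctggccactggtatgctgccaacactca
Klrb1a: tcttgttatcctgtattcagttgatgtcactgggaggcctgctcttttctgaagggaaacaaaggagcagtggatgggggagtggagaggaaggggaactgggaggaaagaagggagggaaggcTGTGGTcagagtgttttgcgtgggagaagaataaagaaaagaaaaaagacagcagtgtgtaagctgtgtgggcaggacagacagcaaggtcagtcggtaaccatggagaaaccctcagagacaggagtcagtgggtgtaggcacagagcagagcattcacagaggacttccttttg
Klrb1c: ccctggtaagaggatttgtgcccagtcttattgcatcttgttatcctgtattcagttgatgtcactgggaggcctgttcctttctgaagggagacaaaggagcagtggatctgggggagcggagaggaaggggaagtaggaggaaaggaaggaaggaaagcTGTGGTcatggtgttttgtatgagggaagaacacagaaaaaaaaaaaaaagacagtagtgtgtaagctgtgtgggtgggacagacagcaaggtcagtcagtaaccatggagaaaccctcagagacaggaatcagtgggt
The RUNX core was found 2 times in the Gzmc window, 2 times in Ncr1 and 1 time each in Xcl1, Klrb1a and Klrb1c. Its letters were not in the windows of Klrb1f, Ccr2 or Hcst. In windows not printed here it was found 1 time in Serpina3g and 1 time in each of 2 windows of the rule's gene Cd160. Of those Cd160 windows 1 also held the T-box motif. Of 32851 promoter windows of the same length, 16.8% held the RUNX core, and 3.98% held the T-box motif. The genes were chosen after their expression was known and the printed windows for the motif, so the 16.8% gives no test of them. A match is a description of the letters only. Runx3, which encodes a factor of the RUNX family, had a UMI in 63.3% of the innate-like lymphocytes, against 4.44% of keratinocytes and 56.4% of the DETC gate. Whether it acts on these genes was not tested.

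The libraries held 1736 to 4972 cells, with median UMIs per cell between 2527 and 4744. The 79 cells had 1555 to 10207 UMIs each, with a median of 3336, and their number limits the precision of every value below. Between libraries 259 cell barcodes were shared, none of them between cells selected by the rule. In AG_CPI 1 the selected cells had no Xist UMI and a Ddx3y UMI in 1 cell, whereas Xist was found in the selected cells of the other 5 mice and Ddx3y was not. Markers of B cells and mast cells were at 0 in all 79 cells for 7 of 7 genes, and 5 of 6 fibroblast and endothelial markers were at 0. The 13 keratinocyte markers summed to 3.07 to 44.1 UMIs per 10000 per mouse, highest in NO_AG 2, against 5.63 to 14.5 in the DETC gate. The 14 myeloid markers summed to 3.70 to 36.9, highest in NO_AG 1, against 2.62 to 39.4 in the DETC gate, with Fcer1a and S100a8 at 0. The part of these transcripts in the results was not tested.

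The values that chose the cells are given as a description. Of the 79 cells, 34 had both Gzmc and Cd160, 26 had Gzmc without Cd160 and 19 had Cd160 without Gzmc. Gzmc encodes a granzyme of the granules of cytotoxic cells, and its mean level per mouse was 174 and 377 UMIs per 10000 for NO_AG, 87.8 and 161 for AG, and 14.8 and 37.0 for AG_CPI. The level per cell ran from 0 to 1008 UMIs per 10000 with a median of 90.8. Xcl1 averaged 24.9 and 67.3 for the NO_AG mice, then 53.9 and 33.8 (AG) and 6.82 and 15.7 (AG_CPI). Both genes had their lowest means in the AG_CPI mice, which rest on 4 cells each. Of the 79 cells, 9 had a single Xcl1 UMI and 48 had 5 or more. Keratin sat at 0 in 62 cells. The highest value inside the limit was 19.6 and the lowest outside it 20.1, and 13 cells were lost to it. The larger loss was to Cd3e or Cd3g, which took away 1186 of the 1300 cells that had Xcl1 with Gzmc or Cd160.

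Markers that the rule did not use were then read. The members and marker lists were chosen with earlier results of these data known, so the shares are a description and no independent check of the label. Fcer1g, an adaptor shared by NK cells, DETC and myeloid cells, had a UMI in 79 of 79 cells, and Tyrobp, the adaptor also called DAP12, in 76 (96.2%, 95% Wilson interval 89.4% to 98.7%). Tyrobp was found in 8.54% of cells in the DETC gate, 4.97% in the CD8 T gate and 10.8% in the keratinocyte gate, which should lack it and had median depths of 2200.5 to 6831.5 UMIs per mouse. Klrb1f and Klrb1a, lectin-like receptors of the NKR-P1 family and the other named markers, had a UMI in 47 (59.5%, 48.5% to 69.6%) and 28 cells (35.4%, 25.8% to 46.4%). In keratinocytes the same genes were found in 0.787% and 0.321% of cells. Ncr1, which encodes the NK receptor NKp46, was found in 36 cells (45.6%, 35.0% to 56.5%), against 0.0886% of keratinocytes. These shares lay above those in keratinocytes, which stand for free RNA, and intervals cover counting error only.

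Of the T cell receptor and CD3 chains that the rule did not use, those of the delta and alpha chains, Cd3d and Cd247 had few UMIs, but the beta-chain constant genes and genes of T cell signalling were found more often. Trdc, the delta-chain constant gene, was at 0 in all 79 cells, which allows a share of cells with a UMI of up to 3.80%, against 81.9% in the DETC gate. That limit is on detection, since a cell without a UMI may still express the gene. Cd3d was found in 1 cell, Trac in 2 and Cd247 in 2. Trbc1 or Trbc2, the beta-chain constant genes, had a UMI in 29 cells (36.7%), although the rule removed cells with a beta variable segment. The keratinocyte gate showed Trbc1 in 2.38% and Trbc2 in 8.64% of cells, against 20.3% for each in the selected cells. The adhesion receptor gene Cd2 had a UMI in 70.9% of the selected cells, the kinase genes Lck and Zap70 in 59.5% and 38.0%, and the adaptor gene Lat in 32.9%. In the keratinocyte gate these were 5.14%, 5.77%, 2.28% and 5.92%. NK cells also express these signalling genes.

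Factors of group 1 innate cells had a UMI in a larger share of the selected cells than of keratinocytes. That comparison does not set the cells apart from other lymphocytes. In the tests described below, 0 of 11 tested genes of the transcription factor list passed against the CD8 T gate. Against cells of the same rule with Cd3e or Cd3g, 0 of 11 passed. Against DETC, Tbx21 and Id2 were higher and Id3 and Ahr lower. Id2, required by innate lymphocytes, was found in 92.4% of cells, against 25.0% of keratinocytes. Tbx21, the factor T-bet of group 1 cells, had a UMI in 19 cells (24.1%, against 0.510% of keratinocytes) and Eomes, a factor of NK cells, in 5 (6.33%, against 0.233%). Gata3, a factor of type 2 cells, had a UMI in 24 cells (30.4%). Keratinocytes express Gata3 themselves (47.6%) and give no background for it. Its share was 12.7% in the DETC gate and 0.995% in the myeloid gate. The type 2 receptor gene Il1rl1 was at 0 in all 79 cells, but only 2.33% of the ILC2 gate had it. Il13 was found in 1 cell, whereas it was found in 97.7% of the ILC2 gate, which was selected in part on Il13. Of 12 listed type 2 markers 7 had a UMI in the selected cells. The list summed to 3.41 to 15.8 UMIs per 10000 per mouse, highest in AG_CPI 1, against 5.12 to 8.34 in the DETC gate. In the tests described below, 1 of 4 tested (Ramp1) was higher than in CD8 T cells. Against DETC 0 of 5 were higher and 2 lower. Pdcd1, the gene of the checkpoint receptor PD-1, was at 0 in all 79 cells. In the CD8 T gate its mean was 0.0949 and 0.112 UMIs per 10000 in the NO_AG mice, 1.76 and 1.92 in the AG mice and 2.06 and 2.35 in the AG_CPI mice. Of the 79 cells 40 and 11 came from the NO_AG mice, where CD8 T cells had little Pdcd1 as well. Receptors of the Klra family and Klre1 were not analysed here.

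**Figure D1:**
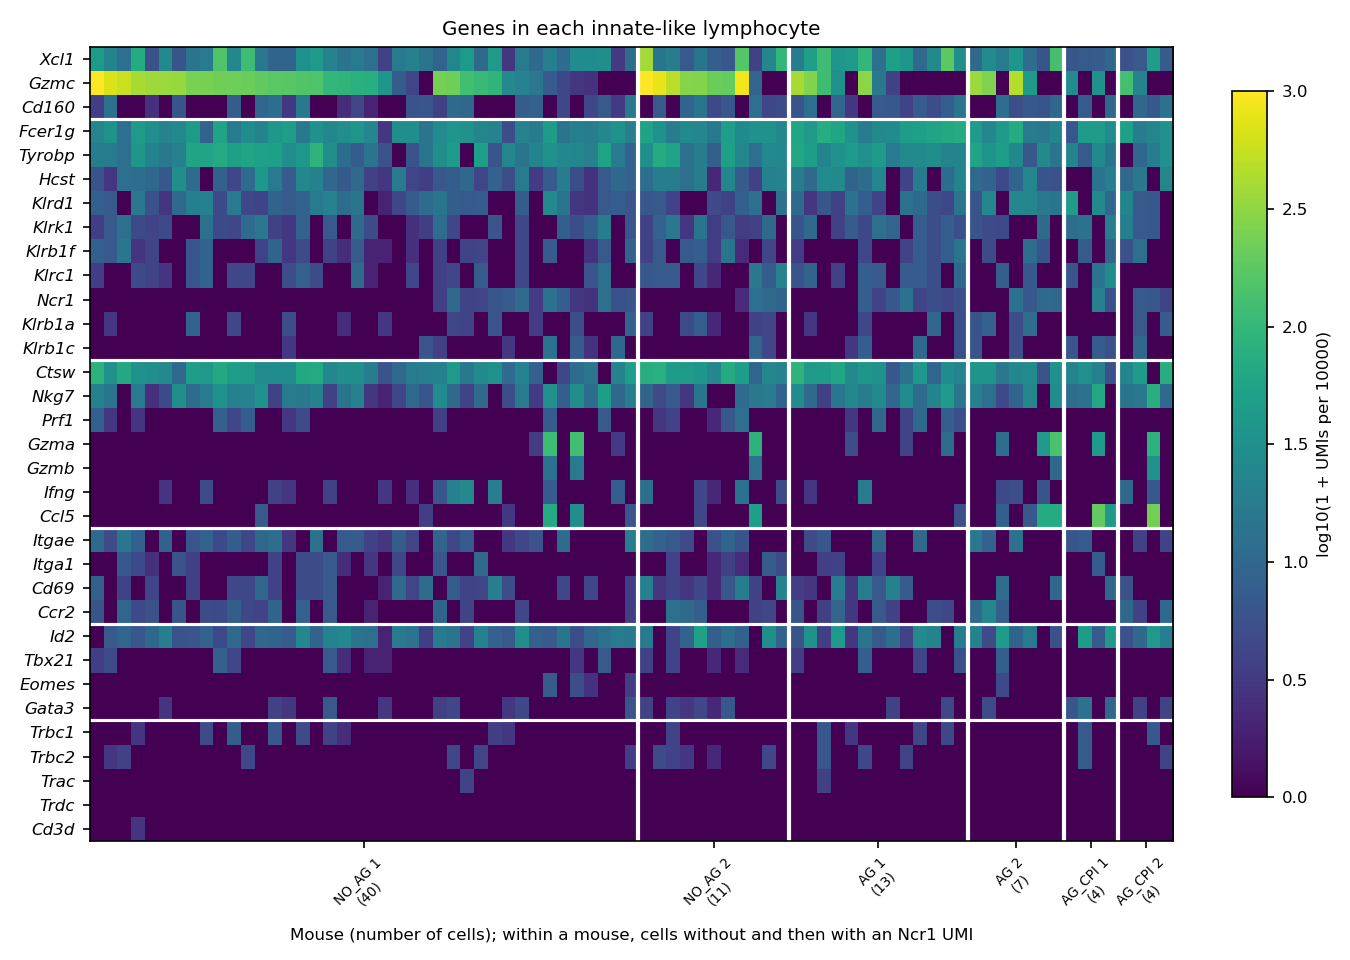
Each column is 1 of the 79 innate-like lymphocytes, grouped by mouse and, within a mouse, cells without and then with an Ncr1 UMI; each row is a gene and the colour is log10(1 + UMIs per 10000). Fcer1g and Tyrobp are filled in nearly every column, Trdc is empty, and Gzma, Gzmb and Ccl5 are bright in the same few cells.

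The 79 cells were not uniform. Itgae, the alphaE integrin that retains lymphocytes in epithelium, was found in 42 of 60 cells with Gzmc (70.0%) and in 4 of 19 cells without it (21.1%). Itgae was found in a larger share of cells with Gzmc in the 4 NO_AG and AG mice and in 1 of 2 cells of either kind in each AG_CPI mouse. Ncr1 showed the opposite sums, in 21 of 60 cells with Gzmc (35.0%) and 15 of 19 without it (78.9%). The granzyme gene Gzma was found in 5 of the 60 and 8 of the 19. It went the other way in NO_AG 2 (1 of 9 and 0 of 2) and AG_CPI 1 (1 of 2 and 0 of 2), and 6 of the 8 came from the AG mice (3 of 6 in AG 1 and 3 of 3 in AG 2). By the rule, every cell without Gzmc has Cd160. The Ncr1 share was lower in the cells with Gzmc in 5 of the 6 mice and equal in AG_CPI 1. In NO_AG 1, 12 of 36 cells with Gzmc and 3 of 4 without it had Ncr1. In NO_AG 2 these were 2 of 9 and 2 of 2, and in AG 1 they were 3 of 7 and 5 of 6. In AG 2 they were 2 of 4 and 2 of 3, in AG_CPI 1 1 of 2 and 1 of 2, and in AG_CPI 2 1 of 2 and 2 of 2. Cells with Gzmc had a median of 3484 UMIs and cells without it 2778, so depth was lower in the second set, and its part was not tested.

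A small set of cells, most of them with Ncr1, carried most of the Gzma and Ccl5 transcripts. Gzma and Ccl5, the latter a chemokine that recruits T cells, were found together in 8 cells from 5 mice. These 8 cells held 95.5% of all Gzma UMIs and 88.8% of all Ccl5 UMIs of the 79 cells. Gzma reached 10.8 to 138 UMIs per 10000 in them and Ccl5 7.20 to 229. All 5 cells with Gzmb, the principal granzyme of effector T and NK cells, were among the 8, as were 3 of the 5 with Eomes. Ncr1 was found in 7 of the 8, Tyrobp in 8, Gzmc in 4 and Itgae in 0. The set was picked after the values were seen and is given without a test. Ccl5 had a UMI in 20.3% of the 79 cells and in 20.7% of keratinocytes, and Gzmb in 6.33% and 6.16%. Detection of these genes therefore did not set the 79 cells apart from keratinocytes, whose median depths were 2200.5 to 6831.5 UMIs per mouse. The part of free RNA in these shares was not tested.

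Other receptors were set beside Ncr1 in the same way, without a test. Klrb1c, the NK1.1 antigen gene, was found in 15 of 36 cells with Ncr1 and 5 of 43 without it, and its share was higher with Ncr1 in every mouse but AG 2. Itga1, the integrin CD49a of tissue-resident cells, was found in 7 of 36 and 17 of 43, and Ccr2, a receptor for monocyte-attracting chemokines, in 12 of 36 and 25 of 43. Single mice did not all follow these sums. Itga1 was found in 2 of 15 and 12 of 25 cells of NO_AG 1 and in 1 of 8 and 2 of 5 of AG 1. It went the other way in NO_AG 2 (3 of 4 and 3 of 7) and AG_CPI 1 (1 of 2 and 0 of 2) and was at 0 in AG 2 and AG_CPI 2. Ccr2 went the other way in NO_AG 2 (2 of 4 and 3 of 7) and was at 0 in AG_CPI 1. Prf1, which encodes perforin, did not divide them in the same way, with 9 of 36 and 13 of 43. Median depths were 3042.5 and 3581 UMIs. The first 300 bases of the Klrb1a and Klrb1c transcripts are 92.2% identical where they align, and the 5′ kit reads that end, so their separate values are uncertain; Klrb1f is 75.1% identical to Klrb1a. Gzmc is 84.3% to 87.3% identical to Gzmd, Gzme, Gzmf and Gzmg over the same stretch and 68.5% to Gzmb. Gzmd, Gzme and Gzmf were at 0 in all 79 cells, and reads shared between these paralogs could not be assigned here.

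The next comparison asked how the cells differ from DETC of the same skin, which share Xcl1 and Fcer1g with them. The DETC gate took cells with Trdv4 and Cd3e or Cd3g and held 1277 cells. Mean levels per mouse were compared in the 3 mice with at least 10 cells of each kind (NO_AG 1, NO_AG 2 and AG 1), with the mouse as a block in limma. The rule's genes and receptor genes were left out. Of 3519 genes, 165 were higher in the innate-like cells (4.69%) and 347 lower (9.86%) at a Benjamini-Hochberg adjusted p under 0.05, and the median log2 difference of all genes was -0.20. The calls numbered 324 without NO_AG 2 and 301 without AG 1. Among the 258 genes with a mean of at least 5, 89 were higher and 55 lower, so the balance of directions depends on the filter on low values, which was added after the data were seen. Levels are printed in the deposited scaling, and log2 differences were fitted after trimmed-mean scaling on the mean plus 0.5, which understates changes of low genes.

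Of 14 tested NK receptors and adaptors, 8 were higher in the innate-like cells than in DETC, 3 were lower and 3 did not pass. Over all genes tested 4.69% were higher and 9.86% lower. Tyrobp measured 28.0, 29.5 and 31.9 UMIs per 10000 in the innate-like cells of NO_AG 1, NO_AG 2 and AG 1 and 1.19, 0.889 and 0.240 in DETC. In every mouse it was higher in the innate-like cells, by 4.61 ± 0.23 (SE) on the log2 scale (limma adjusted p = 3.7e-08). Ncr1 measured 2.19, 2.81 and 3.34 against 0.0101, 0.00458 and 0, a difference of 2.65 ± 0.25 (adjusted p = 2.05e-05, limma). The higher genes were Tyrobp, Ncr1, Klrc1, Klrb1c, Sh2d1b1, Klrb1f, Klrb1a and Hcst and the lower ones Cd7, Cd96 and Klrb1b, with a list median of 0.80. Klrc1, which encodes the inhibitory receptor NKG2A, rose by 2.18 ± 0.25 and Klrb1c by 1.39 ± 0.27. Klrb1a lost its call without any 1 of the 3 mice, Klrb1f without AG 1, and Hcst without NO_AG 2 or AG 1. Fcer1g did not pass, at 34.6 ± 11.8 (SD, n = 3 mice) in the innate-like cells and 39.7 ± 1.52 in DETC. Cd7, a lymphocyte surface protein, measured 3.92, 2.99 and 6.33 against 56.7, 63.3 and 60.9 and fell by 3.75 ± 0.19.

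**Figure D2:**
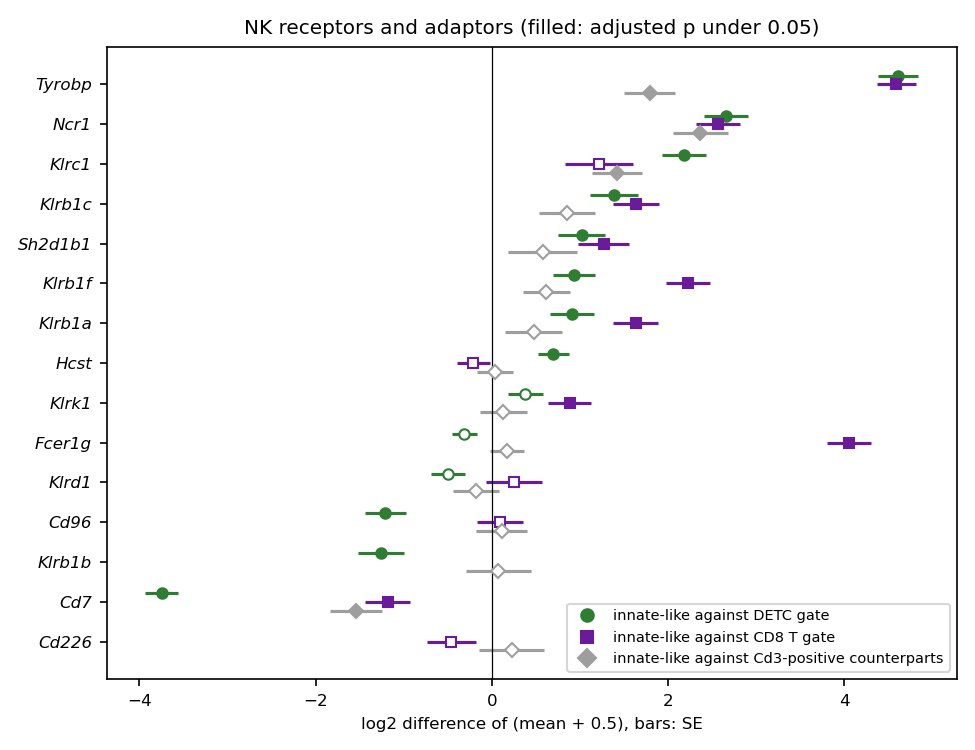
Log2 differences (x axis, with SE) of the tested NK receptors and adaptors (y axis) between innate-like lymphocytes and 3 other gates over 3 mice; filled symbols passed an adjusted p of 0.05. Tyrobp and Ncr1 are filled in all 3 comparisons, and Fcer1g is far to the right against CD8 T cells alone.

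The genes with the smallest p included several outside that list. Pglyrp1, a peptidoglycan recognition protein of granules, was 3.30 ± 0.22 higher and Dusp2, a phosphatase of the MAP kinase pathway, 3.02 ± 0.23. Txk, a kinase of the Tec family, rose by 2.49 ± 0.26, Ccr2 by 2.48 ± 0.25, Cotl1 by 2.39 ± 0.24 and Shisa5 by 1.82 ± 0.19. Gzma rose by 2.95 ± 0.33, at 6.17, 7.88 and 1.36 against 0.198, 0.0913 and 0.0200, and it came from 4, 1 and 3 cells with a UMI in those mice. Several of the lower genes were near 0 in the innate-like cells. Fermt2, an integrin-binding kindlin, was at 0 in the innate-like cells of all 3 mice and 5.12 ± 0.692 in DETC, at least 43.9-fold lower with a floor of 3 UMIs over the 3 mice. Col27a1 was also at 0 and at least 26.9-fold lower. Avil, an actin-binding protein, fell by 3.41 ± 0.23, Trat1, an adaptor of the T cell receptor, by 2.79 ± 0.23, Ctnnd2 by 2.52 ± 0.25 and the transcription factor Fos by 2.48 ± 0.25. Rgcc fell by 2.43 ± 0.21, Gstp1 by 2.11 ± 0.18 and Lmna by 1.91 ± 0.19.

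Cytotoxic genes moved in both directions against DETC. Of 10 tested, 3 were higher (Gzma, Tnfsf10 and Ctsw) and 3 lower (Nkg7, Prf1 and Cst7), with a list median of -0.06. Over all genes tested 4.69% were higher and 9.86% lower, with a median of -0.20. Prf1 measured 1.25, 2.09 and 2.70 in the innate-like cells and 4.81, 4.66 and 4.44 in DETC, a fall of 1.14 ± 0.22 with no overlap. Tnfsf10, the death ligand TRAIL, rose by 1.26 ± 0.30 but not without NO_AG 1, and neither Ctsw nor Cst7 passed without NO_AG 2. Among 10 cytokines and chemokines, Ifng rose by 2.31 ± 0.26, at 2.46, 2.95 and 1.49 against 0.0310, 0.0717 and 0.0221. Ccl5 rose by 1.18 ± 0.34, though AG 1 went the other way and the call was lost without NO_AG 1 (0.83, adjusted p = 0.145 in limma). Areg and Il13, which DETC and type 2 cells make, fell by 1.76 ± 0.25 and 1.41 ± 0.25.

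Residency genes and cytokine receptors differed in a similar mixed way. The counts below stand beside 4.69% higher and 9.86% lower over all 3519 genes tested. Of 13 residency and migration genes, 6 were higher (among them Ccr2, Itga1, Ccr8, Cxcr3 and Cd69) and 4 lower (Rgs2, Itgb7, Cxcr6 and Cd44). Itga1 rose by 1.62 ± 0.27 and Itgae did not pass, at 3.72 ± 1.37 against 3.63 ± 0.265. Of 12 cytokine receptor genes, 4 were higher, both chains of the interleukin-18 receptor (Il18rap by 1.62 ± 0.26, Il18r1 by 1.47 ± 0.25), Il7r and Il2rb. The 4 lower ones were Thy1, Il12rb1, Il12rb2 and Il2rg, with Il12rb2 falling by 1.80 ± 0.30. Il7r and Cd44 passed neither without NO_AG 1 nor without NO_AG 2, Il2rb and Il2rg neither without NO_AG 2 nor without AG 1, and Cxcr6 not without AG 1. Among 12 transcription factors Tbx21 rose by 1.45 ± 0.24 and Id2 by 1.00 ± 0.17, and Id3 and Ahr fell, Ahr not without NO_AG 1. Of 16 interferon response genes 4 were lower (among them Bst2, Gbp4 and H2-D1) and none higher, and Gbp4 and H2-D1 did not pass without AG 1. Of 6 tested myeloid markers 4 were lower (Cd68, Cd74, H2-Aa and H2-Ab1), none of them called without NO_AG 2, and Itgax was higher. The summed myeloid level given above was highest in NO_AG 1 in both kinds of cell.

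Against CD8 T cells, the question was which NK genes remain when both cells are cytotoxic. The CD8 T gate held 4550 cells with Cd8a or Cd8b1 and Cd3e or Cd3g. Of 3227 genes, 43 were higher in the innate-like cells (1.33%) and 165 lower (5.11%), with a median of -0.22. Without the trimmed-mean scaling these were 44 and 51, and the median was -0.03, so the number of lower genes depends on the scaling. Among 253 genes with a mean of at least 5, 4 were higher and 87 lower. Without NO_AG 2, 19 were higher and 27 lower.

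Of the 3 adaptors, Tyrobp and Fcer1g were higher and Hcst did not pass. Tyrobp was 4.59 ± 0.22 higher (limma adjusted p = 3.15e-10). Fcer1g measured 25.7, 30.3 and 47.9 in the innate-like cells and 1.49, 1.55 and 0.737 in CD8 T cells, 4.05 ± 0.25 higher. Hcst measured 9.29, 13.5 and 13.4 against 10.8, 10.7 and 12.2. Ncr1 was at 0 in the CD8 T cells of all 3 mice, so the innate-like level of 2.78 ± 0.574 (SD, n = 3) was at least 458-fold higher with a floor of 3 UMIs over those cells. Of 14 tested NK genes 8 were higher (Tyrobp, Fcer1g, Ncr1, Klrb1f, Klrb1c, Klrb1a, Sh2d1b1 and Klrk1) and Cd7 lower (not without NO_AG 2), with a list median of 1.24. Over all genes tested 1.33% were higher and 5.11% lower. Klrb1f rose by 2.22 ± 0.25, Klrb1c by 1.64 ± 0.26 and Klrb1a by 1.63 ± 0.26, while Klrk1 passed neither without NO_AG 1 nor without NO_AG 2. Further genes named by the smallest p were Tsc22d1 (2.48 ± 0.26), Atp1b1 (2.16 ± 0.26), Txk (2.15 ± 0.27), Ccdc184 (1.95 ± 0.26), Cd9 (1.88 ± 0.27) and Car2 (1.84 ± 0.26).

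Of 13 tested cytokines and chemokines 4 were lower than in CD8 T cells, all of them CC chemokines that recruit leukocytes, 0 were higher and 9 did not pass (list median -0.64). The lower genes made up 5.11% of all genes tested, as given above. Ccl5 measured 2.84, 4.77 and 0.337 in the innate-like cells and 35.5, 34.2 and 120 in CD8 T cells, 4.69 ± 0.52 lower in the innate-like cells. Ccl4 fell by 4.04 ± 0.43, Ccl1 by 2.77 ± 0.44 and Ccl3 by 1.93 ± 0.49, the last not without AG 1. Gzmb fell by 2.93 ± 0.41, at 0.731, 1.05 and 0 against 4.02, 4.62 and 11.7. Gzmk was at 0 in the innate-like cells, at least 7.13-fold lower. Ifng did not pass, at 2.30 ± 0.743 against 4.57 ± 2.26 (adjusted p = 0.0550, limma). Cxcr6, a residency receptor, fell by 2.52 ± 0.26, and Bcl11b, a factor of T cell commitment, by 2.15 ± 0.26. The interferon-induced Ifi27l2a fell by 3.12 ± 0.31, Glrx by 2.16 ± 0.25, Sit1 by 1.86 ± 0.26, Grap2 by 1.83 ± 0.25 and Crip1 by 1.53 ± 0.19.

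Cell cycle genes were lower than in CD8 T cells for 6 of 11 tested, none higher, where 5.11% of all tested genes were lower. Most of these calls were lost without NO_AG 2, but so were most calls over all genes, with 46 left beside 208. Mki67 measured 1.60, 0.182 and 0 against 1.49, 1.67 and 0.644, and the innate-like cells were not lower in NO_AG 1. Without NO_AG 2, Mki67, Top2a, Hmgb2, Stmn1 and Tubb5 lost their calls. Of 17 interferon response genes 4 were lower (Ifi27l2a, Psmb9, Tap1 and B2m) and none higher, and Psmb9, Tap1 and B2m lost the call without NO_AG 2. Mki67 was found in 13.9% of the 79 cells and in 26.0% of keratinocytes.

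**Figure D3:**
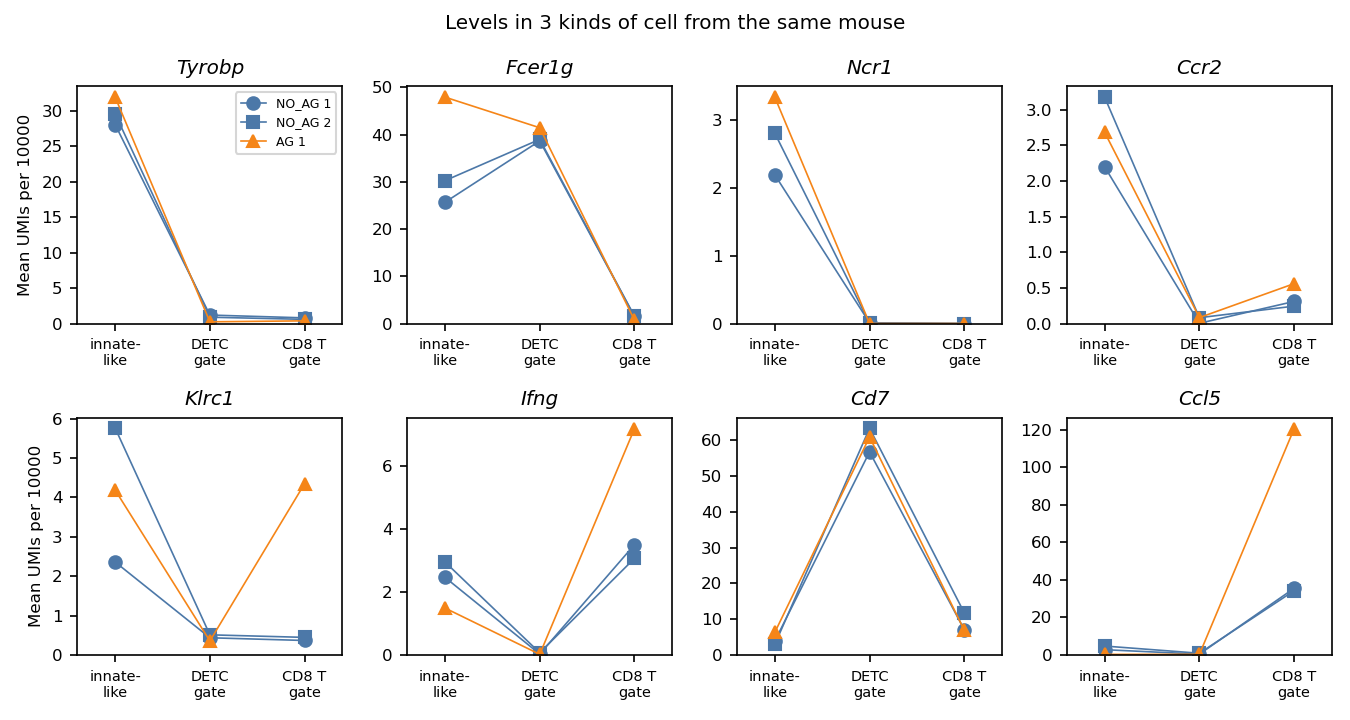
Mean UMIs per 10000 (y axis) of 8 genes in innate-like lymphocytes, the DETC gate and the CD8 T gate; each symbol is 1 of the 3 mice compared, and lines join values of 1 mouse. Tyrobp, Ncr1 and Ccr2 are highest in the innate-like cells of all 3 mice, Cd7 in DETC, and Ccl5 in CD8 T cells.

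Both comparisons shared the innate-like cells, so their calls are not independent of each other. Of 3035 genes tested in both, 24 were higher in both and 51 lower in both. The 24 included Tyrobp, Ncr1, Klrb1a, Klrb1c, Klrb1f, Sh2d1b1, Txk, Ccr2, Pglyrp1, Serpina3g, Il2rb, Itgax, Ctsw, Car2 and Ccdc184. The other 9 were Cd83, Colgalt1, Dscam, Efnb1, Gpr183, Pdzk1, Timp2, Tnni1 and Upp1. Itgax marks myeloid as well as NK cells, and Il2rb and Ctsw did not pass in either comparison without NO_AG 2. Selected cells had median depths of 3369 to 3624 UMIs in the 3 mice, against 2305 to 2867 in DETC and 2315.5 to 2894.5 in CD8 T cells. With every cell thinned to 1500 UMIs and the gates drawn again, 49 genes were higher and 593 lower than in DETC, and 27 and 250 than in CD8 T cells. Of these calls 333 were among the 512 made against DETC at full depth and 131 among the 208 made against CD8 T cells.

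The closest comparison was with cells that met the same rule except that Cd3e or Cd3g was detected. There were 84 such cells. Cd3e alone had a UMI in 14.1% of keratinocytes, and the part of free RNA in this gate was not tested. Of 3559 genes, 5 were higher in the innate-like cells (0.14%) and 2 lower (0.0562%), with a median of -0.03, and 263 had an unadjusted p under 0.05. Calls numbered 25 without NO_AG 1 and 16 without NO_AG 2. Ccr2 measured 2.20, 3.18 and 2.68 against 0.0848, 0.0919 and 0, a rise of 2.48 ± 0.31 (limma adjusted p = 0.000456). Ncr1 rose by 2.36 ± 0.31, the protease inhibitor gene Serpina3g by 2.22 ± 0.37, Tyrobp by 1.79 ± 0.29 and Klrc1 by 1.42 ± 0.28. Tyrobp measured 28.0, 29.5 and 31.9 against 12.3, 2.88 and 13.6, and it had a UMI in 57.1% of the Cd3-positive cells. Ccl5 fell by 2.73 ± 0.30 and Cd7 by 1.54 ± 0.29. Trdc was found in 48.8% of the Cd3-positive cells and in none of the 79. At 1500 UMIs a cell only Ccl5 passed and none of the 5 higher genes did (Ccr2 1.70, Ncr1 1.36, Serpina3g 1.53, Tyrobp 1.19 and Klrc1 1.94), and Klrc1 also lost its call without NO_AG 2. Ccr2, Ncr1, Serpina3g and Tyrobp were the genes higher in all 3 comparisons. A comparison with the ILC2 gate (43 cells) was not made, since only 2 mice had 10 cells of both kinds.

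The study's groups were then compared by the share of innate-like lymphocytes among all cells. The shares were 0.805% (95% Wilson interval 0.591% to 1.09%) and 0.269% (0.150% to 0.480%) in NO_AG, 0.371% (0.217% to 0.634%) and 0.150% (0.0727% to 0.309%) in AG, and 0.230% (0.0896% to 0.591%) and 0.181% (0.0705% to 0.465%) in AG_CPI. NO_AG 1 had the highest share, and its interval overlapped that of AG 1. The intervals of the other 5 mice overlapped each other. The AG values overlapped those of NO_AG and of AG_CPI, while both AG_CPI mice lay below both NO_AG mice. Means were 0.537% ± 0.379 (SD, n = 2), 0.261% ± 0.156 and 0.206% ± 0.0348. On the log2 odds scale AG against NO_AG differed by -0.95 (95% interval -2.66 to 0.77, limma adjusted p = 0.311), AG_CPI against AG by -0.12 (-1.83 to 1.60, adjusted p = 0.988 in limma) and AG_CPI against NO_AG by -1.06 (-2.78 to 0.65, adjusted p = 0.240 in limma). None passed, while of the 10 gates tested together 20%, 10% and 70% did in the 3 comparisons. The exact permutation p-values were 0.667, 1 and 0.333, and 0.333 is the smallest that 2 mice against 2 can give.

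Among cells with a UMI of Ptprc (CD45), the leukocyte marker, the NO_AG mice had shares of 2.49% and 0.772%, the AG mice 0.598% and 0.294%, and the AG_CPI mice 0.310% and 0.270%. The 2 AG_CPI mice lay below both NO_AG mice, and with that denominator the difference of -2.15 passed (limma adjusted p = 0.0449). CD8 T cells rose from 6.04% ± 4.96 of all cells in NO_AG to 57.7% ± 8.19 in AG_CPI, and the part of that rise in the share among leukocytes was not tested. Set against DETC, which fell from 9.64% ± 1.24 to 0.609% ± 0.291, the innate-like cells numbered 7.65 and 3.06 per 100 DETC under NO_AG, 5.33 and 5.56 under AG, and 57.1 and 22.2 under AG_CPI. That ratio rests on 7 and 18 DETC and 4 and 4 innate-like cells in the AG_CPI mice, and the difference was not tested. Cells of the ILC2 gate numbered 16 and 18 (NO_AG), 8 and 1 (AG), and 0 and 0 (AG_CPI).

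**Figure D4:**
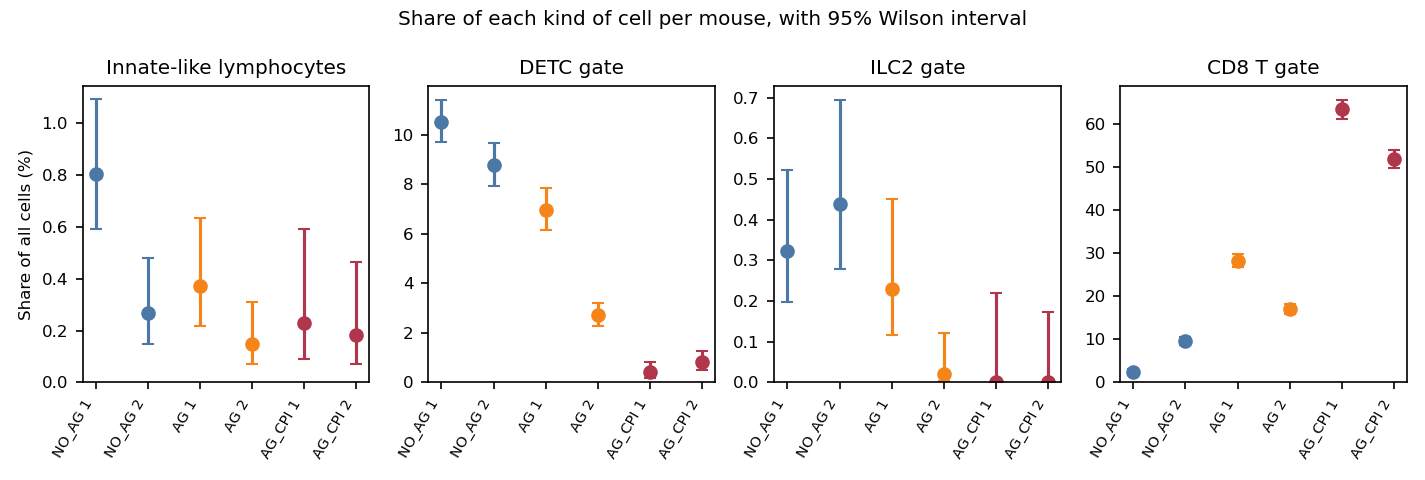
Share of all cells (y axis, %) per mouse for innate-like lymphocytes and 3 other gates, with 95% Wilson intervals that cover counting error only; colours are the groups and the y axes differ. Innate-like shares range from 0.150% to 0.805%, the AG mice overlap both other groups and the AG_CPI mice lie below both NO_AG mice, DETC and ILC2 are lowest in AG_CPI, and CD8 T cells are highest there.

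Within the innate-like lymphocytes, AG was compared with NO_AG gene by gene. The planned minimum of 10 cells per mouse was not met by AG 2, so a minimum of 5 cells was used, chosen after the cell numbers were seen. AG_CPI, with 4 cells in each mouse, fell below both minimums and was not tested. None of 2987 genes passed (0% higher and 0% lower, limma adjusted p), with 194 at an unadjusted p under 0.05 and a median log2 difference of -0.32. Without AG 1 406 genes passed, 3 higher and 403 lower, and without AG 2 12 passed, 1 higher and 11 lower. In each of these fits the AG group was 1 mouse, assumed to vary like the 2 NO_AG mice, which alone gave the spread. In the deposited scaling the median was -0.06 and none passed either.

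Levels of NK receptors and adaptors were then read by mouse. Tyrobp measured 28.0 and 29.5 in NO_AG and 31.9 and 29.5 in AG. Klrb1f measured 2.80 and 3.85, and then 3.07 and 2.85. In AG_CPI Tyrobp measured 16.9 and 14.4, below the other 4 mice, and this was not tested. Ncr1 measured 2.19 and 2.81 (NO_AG), 3.34 and 5.29 (AG), and 5.98 and 3.71 (AG_CPI), and was higher in each AG and AG_CPI mouse than in both NO_AG mice. It did not pass for AG against NO_AG, with a log2 difference of 0.31 ± 0.43 (adjusted p = 0.881, limma). The AG_CPI levels of Ncr1 rest on 4 cells in each mouse and were not tested. Gzmc was found in 36 of 40 and 9 of 11 cells of the NO_AG mice. It was found in 7 of 13 and 4 of 7 cells of the AG mice and in 2 of 4 cells of each AG_CPI mouse. Those shares do not overlap between NO_AG and the other groups, but Gzmc was part of the rule and they are given without a test.

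Class I antigen presentation genes were examined because they respond to interferons. H2-K1, a class I heavy chain, measured 21.3 and 29.8 (NO_AG), 39.3 and 42.1 (AG), and 47.0 and 42.3 (AG_CPI), without overlap between NO_AG and the rest. B2m, the class I light chain, measured 20.9 and 19.6, then 23.5 and 34.2, then 33.4 and 37.2. H2-D1, another class I heavy chain, measured 18.0 and 21.4, then 34.8 and 31.5, then 24.9 and 18.8, so that AG_CPI overlapped NO_AG. H2-K1 and B2m did not pass for AG against NO_AG, with log2 differences of 0.28 ± 0.34 (adjusted p = 0.864, limma) and 0.08 ± 0.35 (adjusted p = 0.956, limma), nor did H2-D1 at 0.34 ± 0.36 (adjusted p = 0.847, limma). Of 13 tested interferon response genes 7 had a positive difference, against 797 of all 2987 genes, and their median was 0.06 beside -0.32 for all genes. These counts move with the scaling: in the deposited scaling, in which the levels are printed, 9 of the 13 and 1362 of all 2987 genes were positive, with medians of 0.43 and -0.06. The differences there were 0.68 ± 0.19 for H2-K1, 0.74 ± 0.18 for H2-D1 and 0.48 ± 0.21 for B2m, and none passed (limma adjusted p = 0.898 for each). Of 10 cytotoxic genes 2 were positive, of 15 NK genes 8, and of 13 residency genes 4 (2, 9 and 6 in the deposited scaling). None of 8 keratinocyte markers (median -1.39), 3 myeloid markers (median -1.25) or 4 cell cycle genes (median -1.43) was positive, in either scaling. Krtdap, a keratinocyte gene, measured 2.97 and 5.02 in NO_AG and 0 and 1.17 in AG, a difference of -2.58 ± 0.57 (adjusted p = 0.758, limma). The summed keratinocyte markers were 16.2 and 44.1 in the NO_AG mice and 7.17 and 7.16 in the AG mice, and their part in the other differences was not tested. Itga1 measured 1.43 and 1.72 in NO_AG and 0.656 and 0 in AG, a difference of -1.59 ± 0.55 (adjusted p = 0.758, limma).

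Levels of Ccl5 and Gzma came from few cells. Ccl5 measured 2.84 and 4.77 (NO_AG), 0.337 and 21.7 (AG), and 58.6 and 57.3 (AG_CPI), where it came from 2 and 1 cells with a UMI. Gzma measured 6.17 and 7.88, then 1.36 and 27.0, then 11.3 and 21.5, from 1 cell in each AG_CPI mouse. The 8 cells with both genes numbered 2 and 1 (NO_AG), 0 and 3 (AG), and 1 and 1 (AG_CPI). Mki67 was found in 9 of the 40 cells of NO_AG 1 and in 2 of the other 39 cells.

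**Figure D5:**
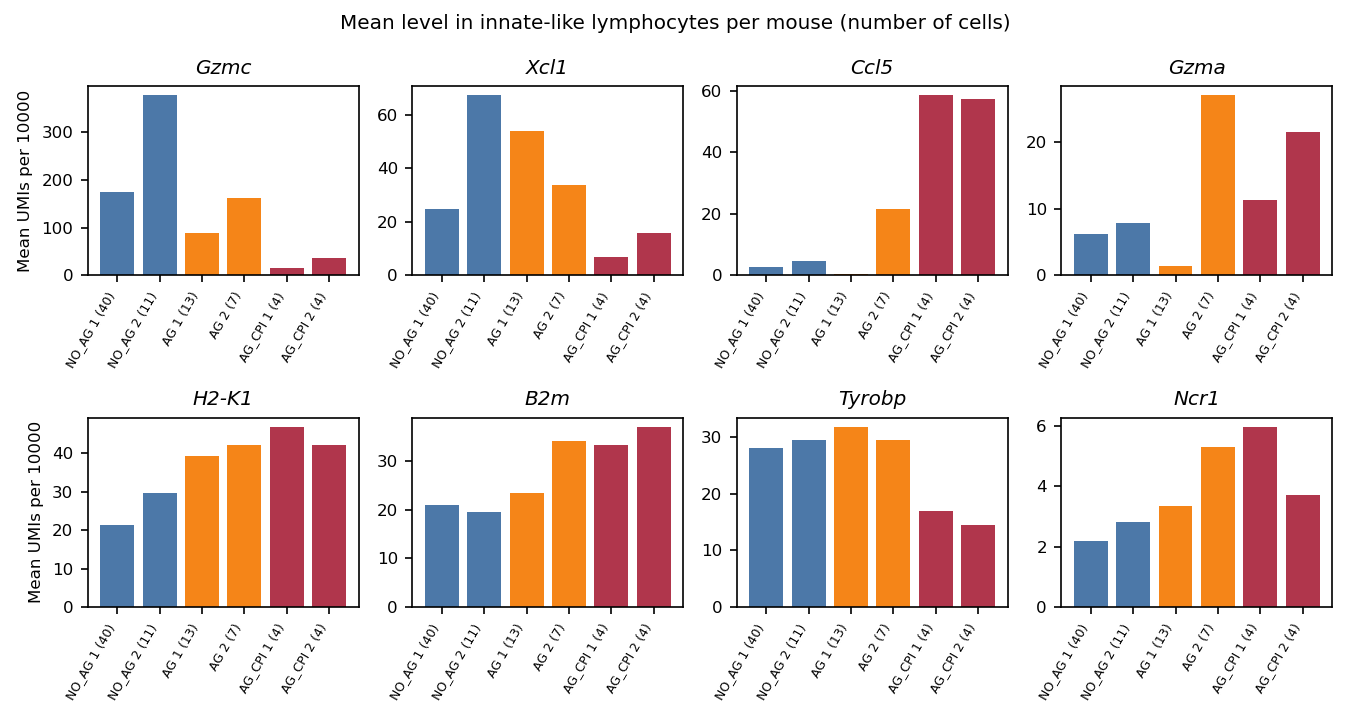
Mean UMIs per 10000 (y axis, from 0) of 8 genes in the innate-like lymphocytes of each mouse (x axis, number of cells in parentheses); bars are single mice and carry no error bar. H2-K1 is lowest in the 2 NO_AG mice, Gzmc is lowest in the 2 AG_CPI mice, and the AG_CPI bars rest on 4 cells each.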

How the data were processed

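Skin cells of 6 NINJA mice were profiled, 2 per group. Cell Ranger 3.1 and mm10 are named in the submitters' processing notes. The deposited values are log10 of 1 + UMIs per 10000, with 16158 genes per cell. Whole UMIs came back for 100% of low values under log10 (within 0.05 UMI), against 66.9% to 69.8% under the natural log. The deposited genes held 95.4% to 96.7% of each library's UMIs.

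Cells were gated as the text states, with T cell gates requiring Cd3e or Cd3g, an ILC2 gate requiring Gata3 with Il1rl1, Il13 or Il5 and no T cell transcript, and a keratinocyte gate with Krt5 and Krt14 at 20 or more UMIs per 10000. UMIs per 10000 were averaged over the cells of a mouse, scaled by a trimmed mean of M-values, and tested as log2(mean + 0.5) in limma 3.58.1 (R 4.3.3), with adjusted p under 0.05. Genes needed 10 UMIs and a mean of 0.5 in 2 columns, and mice 10 cells of each kind. Both kinds of cell come from the same mouse, so the mouse was a block. Shares were tested in limma as log2 odds over 10 gates, with 0.5 added to each number of cells. The 2 mice per group are labelled biological replicates.

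Named genes are up to 10 per direction with the smallest p and 1 direction in every mouse, plus members of fixed lists. The members, gates and lists were chosen with earlier results of these data known. No cells were removed as doublets. Of the 79 cells 3 had a Scrublet score (scanpy 1.11.5) among the top 3.33%, and removing such cells was an alternative. The tests were checked on simulated data. Some genes of the lists are not reported here.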

Additional observations from a re-analysis of the deposited data

How the results depend on the processing

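The shares kept their side of the threshold under thinning, cell filters, a keratin limit of 10 and removal of cells with a T cell receptor transcript. Among cells with Ptprc, AG_CPI against NO_AG came to -2.15 (limma adjusted p = 0.0449). With single mice left out, the log2 odds ratios ran from -1.72 to -0.17 for AG against NO_AG, -0.75 to 0.52 for AG_CPI against AG, and -1.83 to -0.29 for AG_CPI against NO_AG. The deviations of same-numbered NO_AG and AG mice in the innate-like cells had r = 0.012 over 2987 genes. That check rests on means of 7 to 40 cells per mouse, so it cannot show whether a batch was shared. The AG_CPI mice were not part of it. With a replicate block the ratios stayed at -0.95, -0.12 and -1.06, and 0 genes differed within the innate-like cells. At an unadjusted p under 0.05 in limma there were 297 with the block and 194 without it.

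Against DETC 512 genes were called. With no filter on low values 81 were, all among the 512, and with means of at least 5 144 of 258 tested (89 higher and 55 lower), 101 of them among the 512. Single mice left out gave 301 to 584. Against CD8 T cells 208 were called. The number was 112 with a pseudocount of 0.1 and 1 with no filter, all among the 208. It was 95 without the trimmed-mean scaling (88 among the 208), 132 on summed UMIs (130), 91 with means of at least 5 (56) and 124 without the mouse block (122). Single mice left out gave 46 to 276. Against Cd3-positive counterparts 7 were called, 3 with no filter, 3 on summed UMIs, 1 at 1500 UMIs, 12 with means of at least 5 (3 among the 7), and 10 to 25 with single mice left out. AG against NO_AG gave 0 to 406 with single mice left out. The cause of these differences was not tested. The filter on means of at least 5 and the minimum of 5 cells were chosen after seeing the data. None of the 131 named gene results reversed, and 129 kept their call after cell filters and doublet removal, 110 without the trimmed-mean scaling and 35 with no filter. At 1500 UMIs a cell 91 of 125 did. Comparisons without cells holding T cell receptor transcripts, with the ILC2 gate, and between AG_CPI and other groups gene by gene were not run for lack of mice with enough cells.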
